A study of Mus musculus with 10 samples.

Results

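Hippocampal RNA of adult mice was compared between arrays with a high and arrays with a low signal of the choroid plexus, the tissue of the brain ventricles that lies against the hippocampus. The arrays were grouped by the measured signal of Ttr, the gene of transthyretin and the usual marker of this tissue. Of the 10 arrays, 6 had a Ttr log2 signal above 12 and are called high arrays (Ts65Dn replicates 2, 4 and 5 and control replicates 1, 2 and 5). The other 4 had a Ttr log2 signal below 10 and are called low arrays (Ts65Dn replicates 1 and 3 and control replicates 3 and 4). No array lay between the limits. The Ttr value just inside the upper limit was 12.05 in control replicate 1 and the value just outside it was 9.80 in Ts65Dn replicate 1.

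The series measured 5 male Ts65Dn mice, a trisomic model of Down syndrome, and 5 male littermate controls without the extra chromosome, 1 Affymetrix Mouse Gene 1.0 ST array for each mouse. All mice were 16 weeks old and on an F1 hybrid B6C3B background, and the right and left hippocampus of a mouse gave 1 total RNA. Ts65Dn mice carry a small extra chromosome, so that part of mouse chromosome 16 and the centromeric part of chromosome 17 are present in 3 copies. Values are log2 signals normalised by RMA, in which a difference of 1 is a 2-fold change and dim genes show compressed differences. Array medians over the 23410 annotated transcript clusters (the probe set of 1 transcript) were 7.38 to 7.41, and each genotype had 3 high and 2 low arrays.

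The choroid plexus is a folded epithelium over a core of vessels and stroma, and it secretes cerebrospinal fluid by moving ions, bicarbonate and water from blood to ventricle. Its epithelial cells make transthyretin, carry folate into the fluid through the folate receptor, release the hormone-like protein Klotho and keep the transcription factor Otx2 in adult life. Its stroma also holds macrophages and fibroblasts.

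Since the array groups were chosen from measured values, differences between them are given as a description without any test. A gene was counted as following the choroid plexus signal where all 6 high arrays lay above all 4 low arrays, or all below, and the difference adjusted for genotype was at least 1 on the log2 scale. By this count 14 of 23410 transcript clusters were higher in the high arrays, which is 0.0598% of those compared, and 0 were lower (0%). The 14 clusters were 14 different genes on 12 chromosomes, and 13 of them were on lists of known choroid plexus genes. Ttr is among them because the arrays were grouped by it, which leaves 13 other genes, 12 of them on the lists. Since the lists were written with the behaviour of these arrays known, membership is a description and no independent evidence. In bulk RNA, fewer cells of a type and less RNA per cell cannot be told apart.

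The largest difference was that of Kcnj13, which encodes the potassium channel Kir7.1 of the apical epithelial membrane (chr1:87384577-87394729, GRCm38). Its log2 signal was 11.50 in Ts65Dn replicate 2, 11.27 in control replicate 5, 11.10 in Ts65Dn replicate 4, 9.95 in control replicate 2, 9.30 in Ts65Dn replicate 5 and 7.90 in control replicate 1. In the low arrays it was 6.93 in control replicate 3, 6.73 in Ts65Dn replicate 1, 6.31 in Ts65Dn replicate 3 and 5.97 in control replicate 4. The groups did not overlap, and the high arrays themselves spread widely, with control replicate 1 closer to the low arrays than to the highest ones. The group means were 10.17 ± 1.40 (SD, n = 6) and 6.48 ± 0.43 (SD, n = 4), a difference of 3.69 or 12.9-fold. Ttr, by which the arrays were grouped, differed by 3.54, with high values of 13.61, 13.51, 13.38, 13.14, 12.47 and 12.05 in the same order of arrays and low values of 9.66, 9.80, 8.93 and 9.56 in control replicate 3, Ts65Dn replicates 1 and 3 and control replicate 4.

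**Figure D1:**
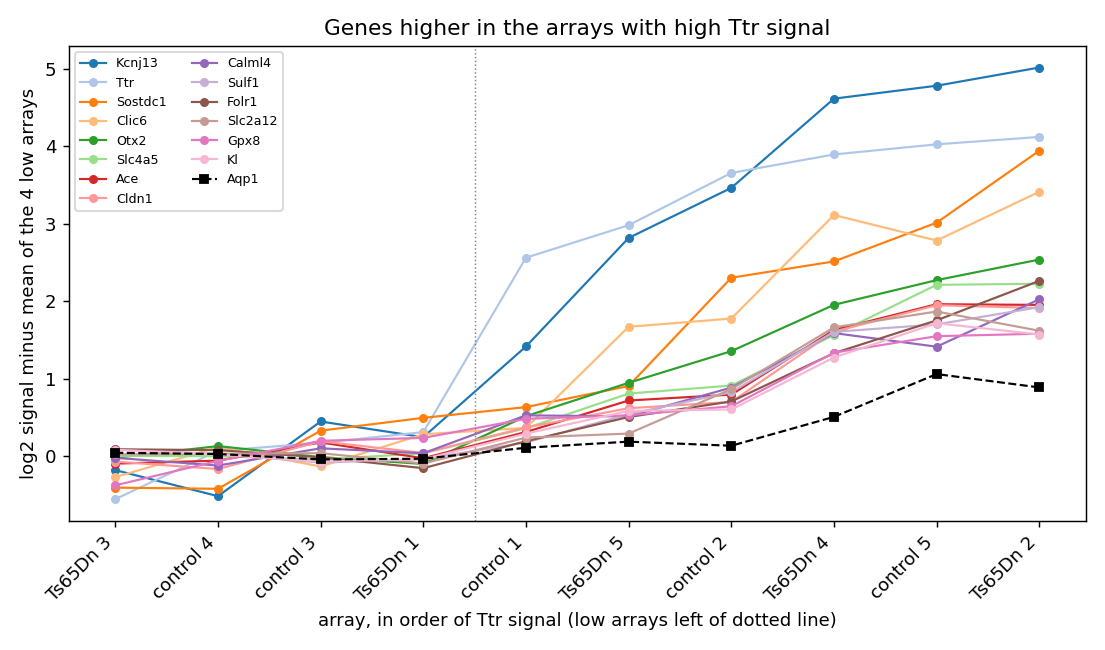
Log2 signal of the 14 genes that followed the choroid plexus signal, and of Aqp1 (dashed), on each of the 10 arrays. The y axis is the log2 signal minus the mean of the 4 low arrays, the x axis orders arrays by Ttr signal, and each line is a gene. Ts65Dn replicates 2 and 4 and control replicate 5 gave the 3 highest values of all 14 genes.

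Among secreted proteins, Sostdc1, an inhibitor of BMP and Wnt signalling (chr12:36314169-36318452), differed by 2.22. Its signal ranged from 8.11 in control replicate 1 to 11.42 in Ts65Dn replicate 2 in the high arrays and from 7.05 to 7.97 in the low arrays, so that the groups were separate by a narrow margin. Kl, the gene of Klotho (chr5:150952607-150993817), gave 9.87, 10.02, 9.57, 8.90, 8.88 and 8.59 on the high arrays in the order used for Kcnj13. It gave 8.23, 8.26, 8.38 and 8.32 on the low arrays (control replicate 3, Ts65Dn replicates 1 and 3 and control replicate 4), a difference of 1.01 or 2.01-fold. Klotho therefore met the size limit with little to spare.

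Clic6 was the second channel gene that followed the signal. It encodes a protein of the chloride intracellular channel family (chr16:92498147-92541241) and was 9.48, 8.85, 9.18, 7.85, 7.74 and 6.44 on the high arrays in the order used for Kcnj13. On the low arrays it was 5.94 in control replicate 3, 6.35 in Ts65Dn replicate 1, 6.19 in control replicate 4 and 5.80 in Ts65Dn replicate 3. Clic6 was separate between the groups only by the step from 6.35 to 6.44, although its mean difference was 2.19. Kcne2, a potassium channel subunit on the same chromosome (chr16:92292389-92298133), was also separate, with a difference of 0.91 under the size limit.

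Among transporters, Slc4a5, which moves sodium with bicarbonate (chr6:83207580-83304945), differed by 1.35, with 6.44 to 8.31 in the high arrays and 6.04 to 6.12 in the low arrays. The folate receptor gene Folr1 (chr7:101858331-101870788) differed by 1.13 and the sugar transporter gene Slc2a12 (chr10:22644990-22703880) by 1.09. Folr1 was 9.52, 9.01, 8.58, 7.96, 7.76 and 7.45 on the high arrays in the order used for Kcnj13, and 7.24, 7.10, 7.34 and 7.33 on control replicate 3, Ts65Dn replicates 1 and 3 and control replicate 4. The water channel gene Aqp1 (chr6:55336299-55348555) was dim throughout. It lay between 5.98 and 6.94 in the high arrays and between 5.83 and 5.92 in the low arrays, a complete separation with a difference of only 0.48.

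Of the epithelial genes, the transcription factor gene Otx2 (chr14:48656781-48667644) differed by 1.60. It was 9.05, 8.78, 8.47, 7.87, 7.46 and 7.03 on the high arrays in the order used for Kcnj13, and 6.50, 6.41, 6.49 and 6.64 on control replicate 3, Ts65Dn replicates 1 and 3 and control replicate 4. Ace, the angiotensin-converting enzyme (chr11:105967948-105989964), differed by 1.23, and Cldn1, a claudin of tight junctions (chr16:26356645-26371839), by 1.19. Calml4, a calmodulin-like protein (chr9:62857472-62875921), differed by 1.16, and Sulf1, an enzyme that trims heparan sulphate (chr1:12692197-12861192), by 1.13. The one gene of the 14 on no choroid plexus list was Gpx8, a peroxidase of the endoplasmic reticulum (chr13:113042757-113046430), with 8.06 to 9.16 in the high arrays, 7.20 to 7.82 in the low arrays and a difference of 1.02.

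Promoter sequence was examined because these genes moved together and Otx2 was among them. RefSeq windows (GRCm38.p6) from 250 bases before to 50 bases after a transcript start were at hand for 9 of the 14 genes, with 13 windows. The hexamer TAATCC, recognised by homeodomain proteins of the Otx type, was searched on both strands (GGATTA on the other), a motif chosen after the values were seen. It occurred in the windows of 2 of the 9 genes, Ace and Otx2, against 8.14% of all 27025 genes with a window. Counted by window it occurred in 2 of 13, against 7.06% of all 32851 windows. The windows of Kcnj13 (chr1:87394680-87394979, minus strand), Ace (chr11:105967698-105967997, plus strand) and Otx2 (chr14:48665060-48665359, minus strand) are shown for the gene with the largest difference and for both matches. They run 5′ to 3′ along the gene, with the motif in capitals, which begins 27 bases before the start of Ace and 211 bases before an annotated transcript start inside Otx2, downstream of the first start of that gene.
Kcnj13: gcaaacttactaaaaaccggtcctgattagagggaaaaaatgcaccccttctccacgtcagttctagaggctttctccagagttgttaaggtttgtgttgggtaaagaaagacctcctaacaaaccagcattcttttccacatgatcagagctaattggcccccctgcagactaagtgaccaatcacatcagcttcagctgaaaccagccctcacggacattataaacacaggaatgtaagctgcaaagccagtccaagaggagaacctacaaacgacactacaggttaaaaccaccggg
Ace: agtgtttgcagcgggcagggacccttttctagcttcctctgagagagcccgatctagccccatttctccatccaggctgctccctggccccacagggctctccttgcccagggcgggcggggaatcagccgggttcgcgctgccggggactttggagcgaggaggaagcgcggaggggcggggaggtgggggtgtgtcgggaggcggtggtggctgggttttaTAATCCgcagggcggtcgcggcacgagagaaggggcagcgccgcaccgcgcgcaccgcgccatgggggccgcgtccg
Otx2: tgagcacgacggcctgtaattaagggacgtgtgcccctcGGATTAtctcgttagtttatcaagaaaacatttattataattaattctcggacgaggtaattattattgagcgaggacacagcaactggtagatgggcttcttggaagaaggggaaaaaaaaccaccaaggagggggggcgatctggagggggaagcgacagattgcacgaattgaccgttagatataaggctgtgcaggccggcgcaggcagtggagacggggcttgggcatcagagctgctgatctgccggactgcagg
The Kcnj13 window held no match, and a match here is a description of letters and not of binding.

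The order of the high arrays recurred from gene to gene. Ts65Dn replicate 2 was highest for 10 of the 14 genes and control replicate 5 for 4, and control replicate 1 was lowest of the high arrays for 13. To compare the arrays on a linear scale, the signal above the low-array mean was expressed as a percent of that in Ts65Dn replicate 2. The median over the 14 genes was 88.8% in control replicate 5, 73.0% in Ts65Dn replicate 4, 27.4% in control replicate 2, 19.3% in Ts65Dn replicate 5 and 8.53% in control replicate 1. The low arrays, whose own mean was subtracted, had medians between -0.5% and 0.84%. Single genes on them ran from -12.3% in Ts65Dn replicate 3 to 8.3% in Ts65Dn replicate 1, Gpx8 in both cases. The high arrays therefore formed a graded series more than a uniform group.

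The genes did not keep 1 common proportion. In control replicate 2 the percent ranged from 16.6% for Folr1 to 70.7% for Ttr, in Ts65Dn replicate 5 from 5.80% for Sostdc1 to 42.0% for Ttr, and in control replicate 1 from 2.88% for Clic6 to 29.8% for Ttr. Ttr, the brightest of the 14, gave the highest percent in these 3 arrays. In control replicate 5 the range ran from 49.1% for Sostdc1 to 128% for Slc2a12. Values near the top or the bottom of the array's range are compressed, and the part of this in the uneven proportions was not tested.

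**Figure D2:**
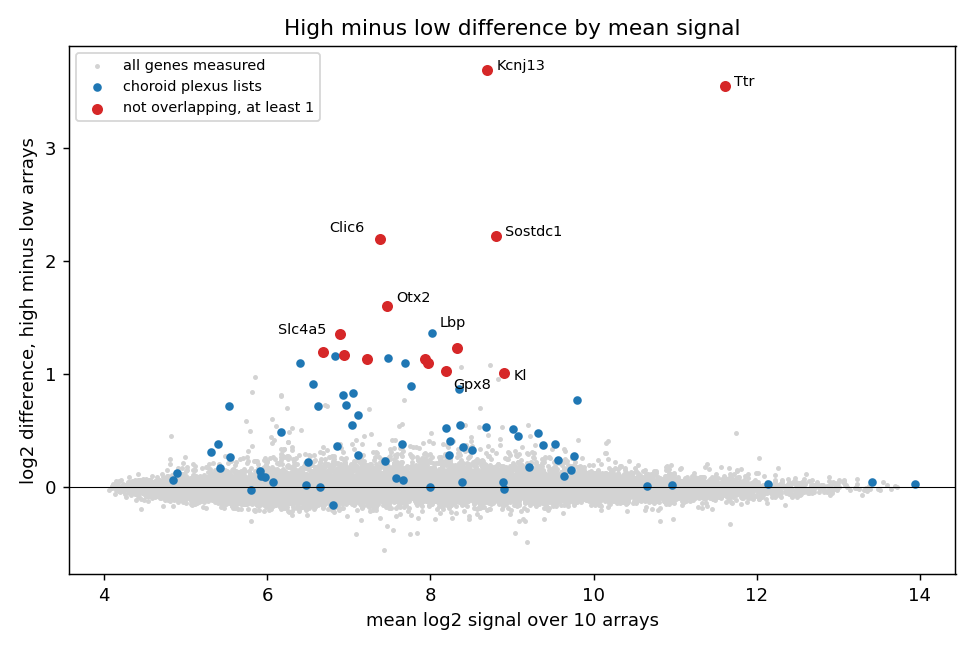
High minus low difference (log2, adjusted for genotype) of all 19938 measured genes against their mean log2 signal over 10 arrays. Each point is a gene, with the 77 measured choroid plexus genes in blue and the 14 genes that followed the signal in red. Points above 1 are few and 0 genes lie below -1.

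Within each genotype the 14 genes had to be higher in the high arrays, since they were selected as separate over all 10 arrays, and only the size is described. The difference was larger among Ts65Dn than among control arrays for all 14 genes, with 1.12 to 4.12 in Ts65Dn and 0.82 to 3.29 in controls. For Kcnj13 it was 4.12 and 3.26, for Ttr 3.79 and 3.29, for Clic6 2.73 and 1.65, and for Otx2 1.87 and 1.32. Each of these values rests on 3 high and 2 low arrays, and the control arrays include replicate 1, the lowest of the high arrays for 13 of the genes. The difference between genotypes in this contrast was not tested.

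**Figure D3:**
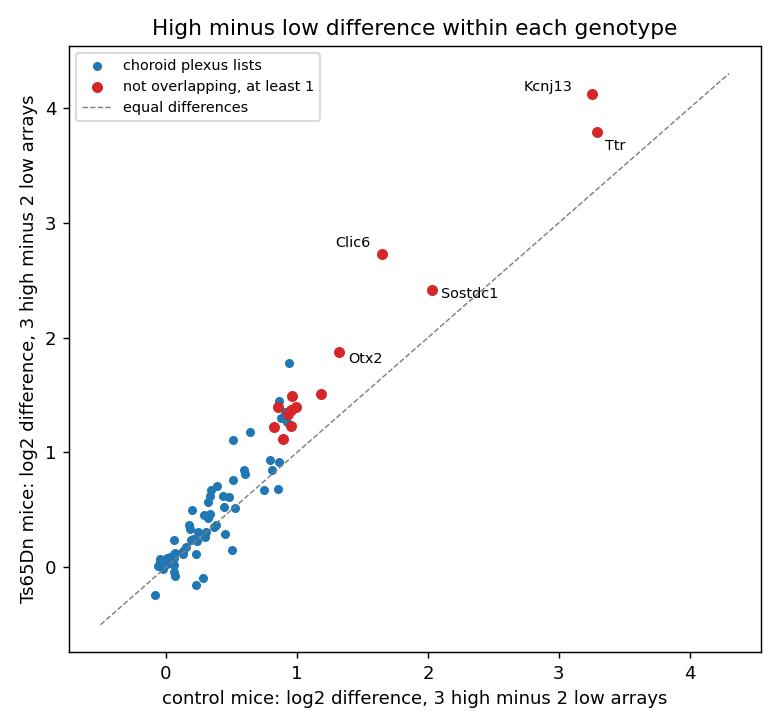
High minus low difference within Ts65Dn mice (y axis) and within control mice (x axis), both log2. Each point is a choroid plexus gene (blue) or one of the 14 genes that followed the signal (red), and the dashed line marks equal differences. All 14 red points lie above the line, Kcnj13 at 3.26 and 4.12.

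The count of 14 depended on single arrays. It was 8 without Ts65Dn replicate 2 or without control replicate 5, 21 without control replicate 1 and 24 without control replicate 4. It was 40 within Ts65Dn arrays and 8 within control arrays. Separation of 3 from 2 arrays is easier to reach, but within control arrays most of the 14 genes fell under the size limit. These were Ace (0.96), Cldn1 (0.99), Calml4 (0.95), Sulf1 (0.93), Folr1 (0.85), Slc2a12 (0.96), Gpx8 (0.82) and Kl (0.89). Kcnj13 kept a difference between 3.26 and 4.14, Ttr between 3.29 and 3.79 and Otx2 between 1.32 and 1.87 in every alternative run, while Kl went as low as 0.83.

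A further 13 genes were separate between the array groups with differences from 0.5 to 1, and 6 of them were choroid plexus genes. These were Kcne2, the collagen gene Col8a1 (0.83), Cox8b of the respiratory chain (0.81), the desmosome gene Perp (0.72), the retinol dehydrogenase gene Rdh5 (0.64) and the keratin gene Krt18 (0.55). Cd74, the invariant chain of class II histocompatibility molecules, was the single one from another list and differed by 0.70. It was high in Ts65Dn replicates 2 (7.77) and 4 (7.62) and at most 6.70 on every other array. The remaining 6 were on no list and comprised Tc2n (0.84), the lysozyme gene Lyz2 (0.77), the paraoxonase gene Pon3 (0.72), the RNA-binding protein gene Rbm47 (0.59), the metalloreductase gene Steap2 (0.54) and Inmt, an N-methyltransferase (0.54). Lyz2, a gene of macrophages, was highest in Ts65Dn replicate 4 (8.73) and not in Ts65Dn replicate 2 (7.89), unlike most of the epithelial genes.

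Another 17 transcript clusters differed by at least 1 on average while the groups overlapped, 9 of them with several symbols. Counted by gene there were 7, namely Lbp, Tmem72, Ecrg4, F5 and Pla2g5 from the choroid plexus lists and Cd59a and Vat1l from none. For 5 of the 7 the groups were separate once control replicate 1 was left out. Tmem72, a membrane protein gene, was 8.47 in Ts65Dn replicate 2 and 8.15 in control replicate 5, yet 6.23 in Ts65Dn replicate 5 and 6.00 in control replicate 1, within the low arrays (6.00 to 6.27). F5, coagulation factor V, was 5.76 in control replicate 1 and 5.65 to 5.80 in the low arrays. Cd59a, an inhibitor of complement, had a different order, with 9.18 in control replicate 1 and 8.01 in Ts65Dn replicate 5. Its difference was 1.44 among controls and 0.70 among Ts65Dn arrays, the opposite of the pattern of the 14 genes.

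Of the 77 measured members of the choroid plexus lists, 22 were separate and higher in the high arrays, 0 were separate and lower, and 13 met both limits. Across all 23410 transcript clusters 0.474% were separate and higher at any size and 0.743% separate and lower. The median difference was 0.37 over the 77 genes and -0.02 over all 19938 measured genes. Of the 77 values 72 were positive, against 7845 of all 19938. The lists were written with the behaviour of these arrays known and are no independent evidence. By role, 3 of 17 secreted proteins and their regulators met both limits (median difference 0.53), as did 3 of 25 transporters and carriers (0.22). So did 2 of 11 ion channels and receptors (0.44) and 5 of 24 epithelial structure genes, enzymes and transcription factors (0.53). Ttr, by which the arrays were grouped, is among the 3 secreted proteins and in the counts of 22 and 13. Without it 12 list genes met both limits, against 0.0598% of all clusters.

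**Figure D4:**
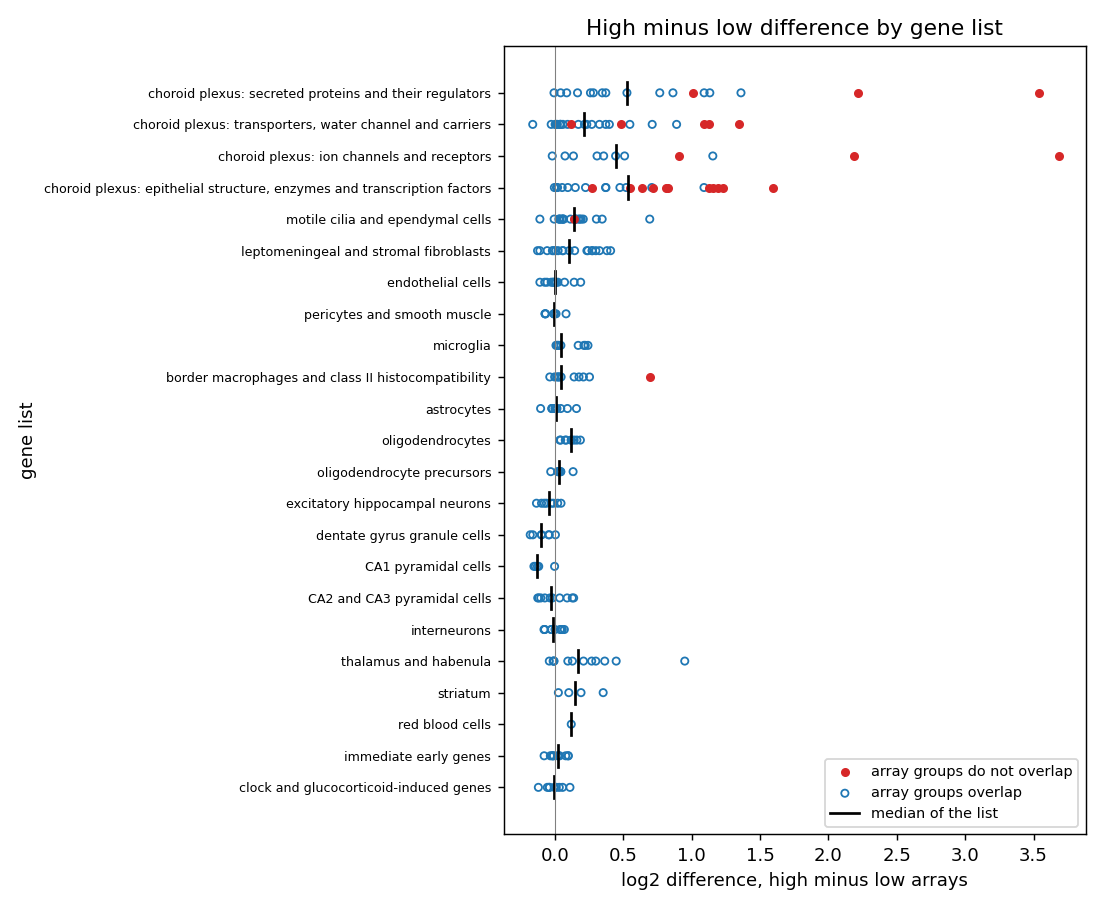
High minus low difference (log2) of the measured members of 23 gene lists. Each circle is a gene, filled red where the array groups did not overlap, and the black bar is the list's median. The 4 choroid plexus lists reach 3.69, and in the lists of neurons all values lie between -0.18 and 0.14.

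Several known choroid plexus genes did not follow. The lactate transporter gene Slc16a8 differed by -0.16, the endocytic receptor gene Lrp2 by -0.03, the vitamin C transporter gene Slc23a2 by 0.00, the bicarbonate transporter gene Slc4a10 by 0.01 and the organic anion transporter gene Slc22a8 by 0.04. Igf2r, which takes up Igf2, differed by -0.02, and the growth hormone receptor gene Ghr by 0.07. Among secreted proteins and matrix genes, Col9a3 differed by -0.01, Wfikkn2 by 0.04 and Sfrp5 by 0.09. The cadherin gene Cdh1 differed by 0.01 and Col8a2 by -0.00. Slc22a8 varied among the low arrays alone from 8.60 to 9.21, nearly the range of the high arrays (8.67 to 9.24). Some of these genes were dim, with mean signals of 5.80 for Lrp2, 5.97 for Sfrp5 and 6.07 for Wfikkn2. Slc4a10 (10.96) and Slc23a2 (10.65) were bright on all arrays, and the rest lay between. The part of signal level in these small differences was not tested.

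Whether a choroid plexus gene was separate went with its level in the low arrays. Of 22 genes with a mean between 6 and 7 in the low arrays 13 were separate, with a median difference of 0.77, and of 15 genes between 7 and 8 there were 4 (median 0.86). Of the 14 genes under 6, close to background, 3 were separate (median 0.21). Of 11 genes between 8 and 9 there was 1 (median 0.35) and of 15 genes at 9 or more also 1, Ttr (median 0.17). Among the genes at 9 or more, the growth factor gene Igf2 differed by 0.77 with overlap, while the sodium pump subunit gene Atp1b2 was 12.13 in the low and 12.15 in the high arrays.

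The other cells of the region were examined in the same way. None of the 66 measured markers of neurons, astrocytes and oligodendrocytes was separate between the groups, against the 0.474% higher and 0.743% lower of all clusters, shares at which lists of this size would hold few or no separate genes. Their median difference was -0.00. The median was -0.10 for dentate gyrus granule cells (7 genes), -0.13 for CA1 pyramidal cells (5 genes) and -0.04 for excitatory neurons (8 genes). Of these, 1 of 7, 0 of 5 and 2 of 8 were positive, against 7845 of all 19938 measured genes. Positive values were also found for 4 of 10 CA2 and CA3 markers and 5 of 10 interneuron markers. For oligodendrocytes it was 0.12, with all 9 genes positive, but the array means of that list overlapped. They were 10.98 to 11.36 in the high arrays, 10.71 in Ts65Dn replicate 3 and 11.00 to 11.19 in the other low arrays. Fibcd1 of CA1 differed by -0.15 and Lct of the dentate gyrus by -0.18, both with overlapping groups. The 13 endothelial markers had a median of 0.00 and the 9 pericyte and smooth muscle markers of -0.01. The median was 0.02 for 11 immediate early genes and -0.00 for 9 clock and glucocorticoid-induced genes.

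Smaller positive values were found for cells that share the ventricle and its surroundings. Of 21 measured genes of motile cilia and ependymal cells, only the ciliary transcription factor gene Foxj1 was separate, by 0.14. The share of all clusters separate and higher was 0.474%. This list's median was 0.14, and 19 of its 21 values were positive. Cfap54, a ciliary protein gene, differed by 0.69 with overlap, and its dimmer transcript cluster (mean signal 6.24) differed by 0.23. The 19 markers of leptomeningeal and stromal fibroblasts had a median of 0.10, with Lum at 0.41 and overlapping groups. The array means of this list ranged from 7.34 to 7.75 in the high and from 7.21 to 7.64 in the low arrays. Microglial markers had a median of 0.04 over 9 genes, all positive, with the complement genes C1qa at 0.24 and C1qb at 0.22. Ts65Dn replicate 4 was highest for both, and its C1qb signal of 11.19 stood above the 10.31 to 10.53 of the other high arrays and the 10.19 to 10.51 of the low arrays. The 11 markers of border macrophages and class II molecules had a median of 0.05. Cd74 was the only 1 of them with a difference of at least 0.5, and 9 of the 11 were positive. Pf4 at -0.04, Ms4a7 at -0.00, Cd163 at 0.03 and Lyve1 at 0.03 lay below that median. The array means of this list, Cd74 included, were 5.976 in Ts65Dn replicate 2 and 6.043 in Ts65Dn replicate 4. They were 5.675 to 5.805 on the other high arrays and 5.64 to 5.741 on the low arrays.

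Markers of neighbouring brain regions were also examined. The 12 markers of thalamus and habenula had a median difference of 0.17, with overlapping groups for each. Their array means ranged from 7.80 to 8.27 in the high and from 7.67 to 7.93 in the low arrays. Zic1, a transcription factor gene of medial thalamus and meninges, differed by 0.95. It was highest in control replicate 2 (10.40) and reached 9.46 in control replicate 4, a low array, above the 8.29 of Ts65Dn replicate 4. Prkcd, a kinase gene of thalamic neurons, was likewise highest in control replicate 2 (9.95). The 4 measured markers of striatum were all positive with a median of 0.15, and their array means ranged from 7.70 to 8.03 in the high and from 7.62 to 7.73 in the low arrays. Among them the dopamine receptor gene Drd2 was highest in control replicate 2 (8.62) and next in control replicate 4 (7.86), a low array. The part of tissue from neighbouring regions in the differences of choroid plexus genes was not tested.

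Across all transcript clusters the groups were close. Of the 23410, 98.6% had a difference within 0.25 of 0 in either direction. The 174 clusters that were separate and lower had a median difference of -0.11 and a median signal of 5.80, against 7.40 for all clusters, and the largest was that of the serotonin receptor gene Htr3a at -0.29. The 111 that were separate and higher had a median of 0.24, and 59 of them differed by less than 0.25. None of the first 4 principal components over all clusters, of which the first took 29.8% and the second 18.3% of the variance, separated the high from the low arrays.

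Genotype was then tested, since it comes from the labels and each genotype had 3 high and 2 low arrays. With genotype as the only term, limma called 74 transcript clusters at an adjusted p under 0.05, 73 of them higher in Ts65Dn (0.316% of those tested). With the array group as a second term it called 66, all higher (0.282%), and 65 were called in both fits. The median standard error was 1.02 times as large with the second term. The second count was 41 without Ts65Dn replicate 2, 36 without Ts65Dn replicate 4 and 40 without control replicate 2. Of the 77 choroid plexus genes 0 were called in either limma fit, and 4 had an unadjusted p under 0.05 in each, against 663 and 656 of all 19938 genes. The lowest adjusted p of limma was that of the membrane linker gene Ezr (chr17:6738131-6782780), at 0.209 with genotype alone and 0.176 with the array group. Ezr was 0.43 ± 0.10 (log2, SE, n = 5 per genotype) or 1.35-fold higher in Ts65Dn and lies in the part of chromosome 17 that these mice carry in 3 copies.

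Clic6 and Kcne2 are further choroid plexus genes that Ts65Dn mice carry in 3 copies, and unlike Ezr both were separate between the array groups. Clic6 was 1.58-fold higher in Ts65Dn with genotype as the only term (limma, 95% interval 0.483 to 5.17, adjusted p = 1). With the array group as a term the same fold had an interval of 0.770 to 3.24, and with the Ttr signal as a term it was 1.54-fold (0.994 to 2.39, limma adjusted p = 1 in both). With the signal of Kcnj13 as a term, a choice made after the values were seen, it was 1.23-fold (0.940 to 1.60, limma adjusted p = 1). All 4 intervals included equal levels.

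Kcne2 was 1.31-fold higher in Ts65Dn with genotype alone (limma, 95% interval 0.727 to 2.35, adjusted p = 1) and 1.17-fold with the Kcnj13 signal as a term (0.883 to 1.54, limma adjusted p = 1). It was 8.03 in Ts65Dn replicate 2, 7.30 in Ts65Dn replicate 4 and 7.17 in control replicate 5, then 6.57 or less on every other array. All intervals given for both genes include equal levels as well as the 1.5-fold of a gene expressed in proportion to its copies.

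**Figure D5:**
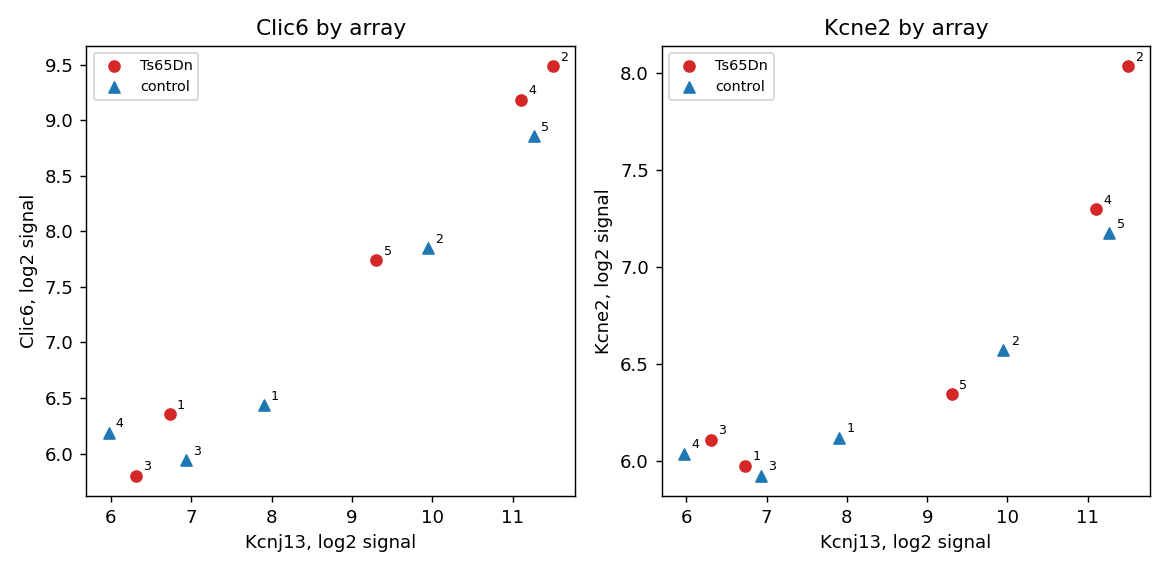
Log2 signal of Clic6 (left) and Kcne2 (right) on the y axis against that of Kcnj13 on the x axis. Each point is a mouse, red circles are Ts65Dn and blue triangles control, and the small digits give the replicate. Both genes climb with Kcnj13 in either genotype, Clic6 from about the low-array range (5.80 to 6.35) to 9.48 in Ts65Dn replicate 2.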

How the data were processed

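Total RNA of the right and left hippocampus of each of 10 mice was measured on Affymetrix Mouse Gene 1.0 ST arrays, 1 per mouse. The authors deposited RMA summaries on a log2 scale (background correction, quantile normalisation, summary per transcript cluster); per the labels the build is mm10, and the versions of RMA and limma are not given in the sources used here. Such summaries compress the differences of dim and of very bright genes. The number of mice sets the precision.

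Of 35556 transcript clusters, 23410 had a gene symbol and were analysed (21789 with 1 symbol, 1621 with several). A gene was measured by its brightest cluster with 1 symbol, which gave 19938 genes. RefSeq GRCm38.p6 gave positions and promoters. Python 3.11.15, R 4.3.3 and limma 3.58.1 were used. The high minus low difference is the array-group coefficient of lmFit with genotype as covariate. Genotype was tested with lmFit and eBayes, two-sided, with Benjamini-Hochberg adjustment over all analysed clusters. The fits were tested on simulated data. The rank method of the study (FCROS) was not run.

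Members and lists were chosen with earlier results of these data known. The text names the 4 markers, the genes with the largest differences among those with separate groups, the extreme members of each list, and Clic6 and Kcne2. The genes with overlapping groups, Lcn2 among others, and Lyz2, whose groups were separate, were singled out after their values were seen. Alternatives were other sizes, filters, normalisations and terms, each genotype alone, and leaving out each array in turn.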

Additional observations from a re-analysis of the deposited data

Results flagged for a closer look

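In 66 sets of values (a gene in the high or the low arrays) the highest or lowest array was compared with the rest by Dixon's test, for which chance gives about 1 in 20. Only 2 stood out. Slc2a12 in the low arrays was lowest in Ts65Dn replicate 1, at 7.22 against 7.34 for the nearest array. Olfr444, an olfactory receptor gene, was lowest among the high arrays in Ts65Dn replicate 4, at 5.67 against 5.83.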

How the results depend on the processing

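The count of 14 genes higher in the high arrays became 28 with a size of at least 0.5, 4 with at least 2, 40 within Ts65Dn arrays and 8 within control arrays, and it ranged from 8 to 24 when each array was left out in turn. Fewer arrays per group and another size limit change what can be counted by construction. The count of lower genes was 0 in every alternative. The genotype count of 74 ranged from 51 to 63 and that of 66 with the array group from 36 to 59 when each array was left out. Deviations of samples with the same replicate number had positive correlations throughout, from 0.0313 to 0.507. Samples with different numbers were not compared in this way, so whether the numbers mark pairs was not tested. The labels state no pairs, and the main fits had no replicate block. With a replicate block the genotype fit called 76 and the fit with the array group 70. Other alternatives of these counts stayed within 1.5 times, and the marker differences kept their sign. With genotype alone, the Clic6 difference of 0.66 went from 0.22 without Ts65Dn replicate 2 to 1.14 without Ts65Dn replicate 3, and that of Kcne2 (0.39) from 0.07 without Ts65Dn replicate 2 to 0.59 without control replicate 5. With the array group they ranged from 0.25 to 0.91 and from 0.14 to 0.60. Signals close to background limit what could be seen for dim genes such as Aqp1.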

Other observations

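Lcn2, the gene of the iron-binding protein lipocalin 2, was 10.27 in Ts65Dn replicate 4 and at most 6.58 on the other 9 arrays, with an average difference of 0.50. The dimmest transcript cluster of Baiap2l1, on the choroid plexus lists, had a difference of 1.93 with an order unlike that of the other genes. It was 9.66 in Ts65Dn replicate 1, a low array, and 6.79 in Ts65Dn replicate 2, while the brightest cluster of the gene differed by 0.02. Among 12146 clusters without a symbol, 1 was separate and at least 1 higher in the high arrays. It is unnamed here (probe set 10428619) and differed by 1.11, with 13.07 in Ts65Dn replicate 2, 12.99 in control replicate 5 and 11.62 in control replicate 1, the lowest of the high arrays.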
